A study of Homo sapiens with 96 samples.

Results

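MDM4, MDM2, PPM1D and CDKN1A are 4 genes around the tumor suppressor p53, and they were taken here as all alternative splicing events whose gene symbol was one of these 4 in the 8 splicing tables of the study. They made up 4 of the 14397 genes and 118 of the 239131 different events in those tables. MDM2 contributed 79 events, MDM4 and PPM1D 18 each, and CDKN1A 3. None of the 118 was a retained intron, and 23 were listed in all 8 tables.

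The data were poly(A)-selected RNA-seq libraries of A549, an established human lung adenocarcinoma cell line, treated in culture with inhibitors of protein arginine methyltransferases (PRMTs). GSK591 inhibits PRMT5, the main enzyme that makes symmetric dimethylarginine, and MS023 inhibits the Type I PRMTs, which make asymmetric dimethylarginine. There were 10 groups of 3 libraries. Cells received 0.01% DMSO for 4 or 7 days, GSK591 at 1 µM for 2, 4 or 7 days, MS023 at 1 µM for the same lengths of time, or GSK591 plus MS023, each at 1 µM, for 2 or 4 days. The 2-day and the 4-day inhibitor groups were all compared with the same 4-day DMSO libraries, so these comparisons share their controls, and at 2 days the inhibitor and the length of culture cannot be told apart. All groups are 1 cell line, and no label says that the libraries of a group came from separate cultures, so p-values measure only the spread between these libraries.

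p53 is a transcription factor that is kept low in unstressed cells by MDM2, a ubiquitin ligase, and by MDM4 (also called MDMX), a relative of MDM2 that binds the activation domain of p53 and pairs with MDM2. MDM2, CDKN1A (which encodes p21, an inhibitor of cyclin-dependent kinases) and PPM1D (which encodes WIP1, a phosphatase that reverses DNA damage signaling) are textbook p53 target genes, so that MDM2 and PPM1D close feedback loops on their own activator. MDM4 is known to be regulated by splicing: joining exon 5 directly to exon 7 gives the short transcript MDM4-S, whose reading frame ends early.

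The exon that carried the largest change among these genes was exon 6 of MDM4, 68 nt long, at chr1:204506558-204506625 of hg19 on the plus strand. It is internal and protein-coding in the main transcript of the GENCODE 44 annotation (MDM4-203, 11 exons, 490 codons) and lies between exon 5 at chr1:204501319-204501374 and exon 7 at chr1:204507337-204507436. Read through the annotated frame, a transcript without it reached a stop at codon 141 of 490. Exon 6 also has an internal acceptor that gives a 39-nt form starting at chr1:204506587, with which the first stop came at codon 154. The sequence runs from 20 bases before to 8 bases after the exon in GRCh37, first with the exon in capitals and then with both acceptor AGs and the donor GT in capitals. It is shown because both MDM4 events that were called more than once use these sites.
MDM4 exon 6: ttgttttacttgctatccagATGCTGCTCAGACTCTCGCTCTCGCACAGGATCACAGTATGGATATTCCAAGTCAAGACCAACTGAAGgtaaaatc
MDM4 exon 6 splice sites: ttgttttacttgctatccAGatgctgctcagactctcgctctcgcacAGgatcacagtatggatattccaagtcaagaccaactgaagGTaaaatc
The 5′ splice site of exon 6, aagGTaaaa, matched CAGGTAAGT, the most frequent base at each position over the 65476 skipped exons in the GSK591 4-day table, at 6 of its 9 bases. This was also the median number of matches of those exons, of which 60.0% had 6 matches or fewer. The exon before it, exon 5, had 8 matches (cagGTatgt), a number reached by 9.32% of those exons.

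In MDM2 the choice between a long and a short form of exon 9, described below, was called in 3 of the 8 comparisons with DMSO. The other recurrent changes were at a pair of exons inside intron 3, which the main transcript (MDM2-202, 11 exons, 497 codons) does not hold. The 93-nt exon, annotated in MDM2-212, kept the frame and added no stop codon. The 87-nt exon at chr12:69208383-69208469, annotated in MDM2-213, brought a stop at codon 77. The 87-nt exon is shown in the same way, exon in capitals, because its share among the reads of the pair changed at 4 days of GSK591 and of co-treatment.
MDM2 87-nt exon: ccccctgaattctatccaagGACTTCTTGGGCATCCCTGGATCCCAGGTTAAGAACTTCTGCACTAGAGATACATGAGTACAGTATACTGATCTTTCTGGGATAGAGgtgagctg
It had 6 matches at the 5′ splice site (gagGTgagc), whereas exon 4 of MDM2, which follows it in the gene, had 8 (cagGTaatt).

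Before the results, 1 library stood apart. Library a of GSK591 at 2 days differed from libraries b and c in total reads on 1 event per gene, retained introns excluded. The chi-square per degree of freedom was 92.7 and 101, against 2.97 to 8.60 for all other pairs within a group. It compares read amounts and not inclusion levels. Tests of the 4 genes that rest on GSK591 at 2 days are therefore given with and without library a. The total of reads over 1 event per gene ranged from 10473774 to 16492014 per library. Of the identity markers, AKR1B10, AKR1C1, ALDH1A1 and NQO1, known to be high in A549, and 3 of 6 epithelial genes (CDH1, KRT7 and KRT8) held reads in all comparisons. Of 6 markers of other cell types, only COL3A1 held reads, at most 9 in a library, and a gene without a listed event is not thereby absent.

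Inclusion is given as Ψ, the share of transcripts that hold the alternative segment, from the deposited counts of reads for and against it corrected for the effective lengths, and ΔΨ is the inhibitor minus its DMSO control. Values are mean ± SD of 3 libraries, and an event was called at an adjusted p below 0.05 in a quasi-binomial model with limma's moderation of the dispersion, fitted on the whole table. GSK591 called 3 of 50 tested events of the 4 genes at 2 days (6.0%, against 7.02% of all events in that comparison; 3 of 47 without library a, against 5.14%), 7 of 66 at 4 days (10.6%, against 11.2%) and 3 of 69 at 7 days (4.35%, against 8.93%). MS023 called 1 of 34 at 2 days (2.94%, against 3.16%), 0 of 38 at 4 days (against 3.75%) and 0 of 46 at 7 days (against 4.75%). Both inhibitors together called 5 of 48 at 2 days (10.4%, against 13.4%) and 7 of 54 at 4 days (12.96%, against 14.7%). The shares for the 4 genes were near or below those of all events, so the counts are no result about these genes. What follows describes the single events. The median ΔΨ of the tested events of the 4 genes lay between -0.0057 and 0.0019 in the 8 comparisons, against -0.0022 to -0.00023 for all tested events. In all, 104 of the 118 events were tested at least once, 12 were called at least once and 6 in 2 or more of the 8 comparisons.

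**Figure D1:**
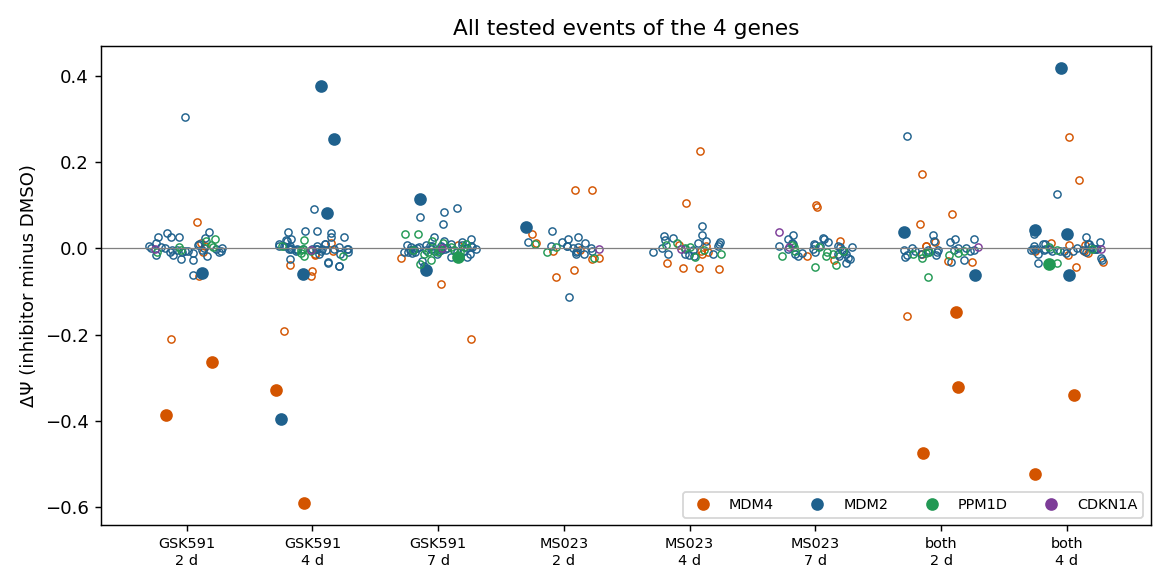
ΔΨ (inhibitor minus DMSO, y axis) of every tested event of the 4 genes in the 8 comparisons with DMSO (x axis), 1 point per event, colored by gene, filled where the event was called and open where it was not; the horizontal offset only separates points. Most events lie near 0, the lowest filled points with GSK591 at 2 and 4 days and with both inhibitors are MDM4 exon 6 (ΔΨ -0.39, -0.59, -0.47 and -0.52), and MS023 at 4 and 7 days has no filled point.

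MDM4 exon 6 was mostly included in DMSO and mostly skipped with GSK591 at 4 days. At 4 days of DMSO its Ψ was 0.673, 0.780 and 0.805 (0.753 ± 0.070). With GSK591 it was 0.527, 0.360 and 0.213 at 2 days (0.367 ± 0.157) and 0.200, 0.113 and 0.173 at 4 days (0.162 ± 0.044). Every GSK591 library at these days was below every DMSO library. The fall of 0.386 at 2 days had an adjusted p of 8.4e-05 and that of 0.591 at 4 days one of 3.7e-10 (quasi-binomial model with limma's squeezeVar). Without library a, the 2-day difference was -0.466 with an adjusted p of 0.0013. The reads behind these values were few. The 3 DMSO 4-day libraries held 143 reads for and 32 against exon 6, and the GSK591 4-day libraries 38 for and 135 against.

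Co-treatment gave a similar level. Ψ was 0.191, 0.227 and 0.417 at 2 days (0.278 ± 0.121) and 0.260, 0.251 and 0.179 at 4 days (0.230 ± 0.045), again without overlap with DMSO. The adjusted p was 1.7e-06 for a ΔΨ of -0.474 and 2.4e-08 for a ΔΨ of -0.523. Set directly against GSK591 alone, both inhibitors differed by -0.088 at 2 days (adjusted p = 0.81; -0.008 without library a of GSK591) and by 0.068 at 4 days (adjusted p = 0.52). These comparisons called 0 of 34 and 0 of 46 events of the 4 genes, against 4.41% and 6.53% of all events (0 of 34, against 3.67%, at 2 days without library a), and a p that misses the threshold does not show that the treatments act alike.

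With MS023 alone the mean level of exon 6 was not below that of DMSO. Its Ψ was 0.686, 0.778 and 0.897 at 2 days (0.787 ± 0.106), 0.764, 0.873 and 0.934 at 4 days (0.857 ± 0.086) and 0.892, 0.861 and 0.765 at 7 days (0.839 ± 0.066). All 3 means lay above their DMSO control, by 0.034, 0.104 and 0.099, with overlapping libraries and adjusted p of 0.82, 0.47 and 0.48, and the 2-day difference ranged from -0.021 to 0.085 when 1 library was left out. GSK591 against MS023 at the same day, which needs no DMSO library, gave differences of -0.420 at 2 days (adjusted p = 9.4e-06; -0.500 with 8.0e-05 without library a), -0.695 at 4 days (5.4e-16) and -0.310 at 7 days (0.031). The 7-day difference lost its call when any 1 of the 6 libraries was left out (adjusted p 0.050 to 0.17). These direct comparisons called 3 of 25, 4 of 35 and 2 of 42 events of the 4 genes, against 11.7%, 17.1% and 14.7% of all events, and the 2-day count was 3 of 25, against 9.86%, without library a.

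At 7 days exon 6 was less reduced. DMSO at 7 days gave 0.767, 0.589 and 0.864 (0.740 ± 0.14) and GSK591 0.563, 0.654 and 0.370 (0.529 ± 0.145), so the libraries overlapped and the difference of -0.211 was not called (adjusted p = 0.22). Each GSK591 7-day library had only 13 to 23 reads on this event. The change of the GSK591 effect between 4 and 7 days, tested as an interaction, had an adjusted p of 0.090 (quasi-binomial model with limma's squeezeVar). In that test 0 of 42 events of the 4 genes were called for GSK591, against 1.83% of all events, and 0 of 25 for MS023, against 0.0779%. DMSO at 7 against 4 days differed by -0.013 for exon 6 (adjusted p = 0.92), and GSK591 at 4 against 2 days by -0.205 (adjusted p = 0.27; -0.124 with 0.47 without library a). From low to high the group means were GSK591 4 days, both 4 days, both 2 days, GSK591 2 days, GSK591 7 days, DMSO 7 days, DMSO 4 days, MS023 2 days, MS023 7 days and MS023 4 days, with neighbors separated by more than the larger SD of the pair only between GSK591 4 days and both 4 days, between GSK591 2 days and GSK591 7 days, and between GSK591 7 days and DMSO 7 days.

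**Figure D2:**
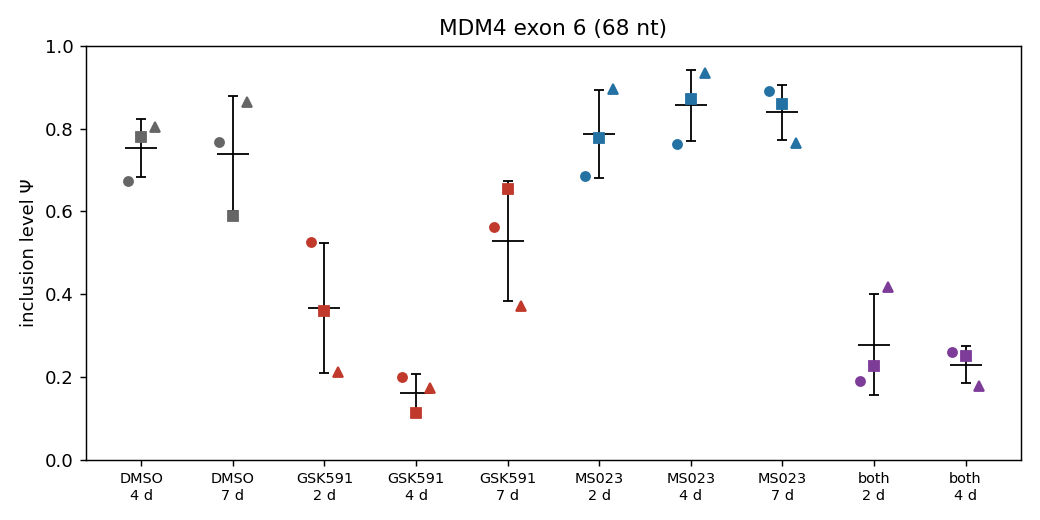
Inclusion level Ψ of the 68-nt exon 6 of MDM4 (y axis, 0 to 1) in the 3 libraries (circle a, square b, triangle c) of each of the 10 groups (x axis); horizontal marks are means and bars are SDs. DMSO and MS023 libraries lie between 0.589 and 0.934, GSK591 4-day libraries between 0.113 and 0.200, and GSK591 7-day libraries between 0.370 and 0.654.

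The 39-nt form of exon 6, counted against the same skipping reads and so not independent, fell too. It was at 0.377 ± 0.127 in DMSO at 4 days. It stood at 0.112 ± 0.102 with GSK591 at 2 days (adjusted p = 0.014; 0.020 without library a), 0.049 ± 0.021 with GSK591 at 4 days (2.4e-04), 0.055 ± 0.095 with both inhibitors at 2 days (0.0028) and 0.037 ± 0.038 with both at 4 days (2.1e-04). Only 24 reads over the 3 DMSO libraries supported the 39-nt form, and the 2-day calls held in 2 (GSK591) and 3 (both) of the 6 fits that left out a library. Choice between the acceptors was not called in any comparison: the share of the full 68-nt form was 0.940 ± 0.001 in DMSO at 4 days, and the group means ranged from 0.869 to 1.00.

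Among the other MDM4 events, exon 9 had the most reads of any MDM4 skipped exon listed in all tables. It is 150 nt long, at chr1:204513663-204513812, and its loss keeps the reading frame. Its Ψ was 0.95, 0.904 and 0.918 in DMSO at 4 days and 0.799, 0.758 and 0.771 with both inhibitors at 2 days. This was its only called difference (ΔΨ -0.148, adjusted p = 0.024), and it was lost when any 1 of the 6 libraries was left out. At 4 days of co-treatment Ψ was back at 0.932 ± 0.027, and the other groups had means of 0.859 to 0.932. The MDM4 pair of exons 8 and 10, recorded as mutually exclusive, ranged from 0.462 to 0.619 among the 6 groups where it was listed and was never called.

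In likeness of profile, the skipped exons closest to MDM4 exon 6 across the 10 group means were in PPP1R12C (Pearson r = 0.994), ANAPC7 (0.991), QTRT1 (0.990), EGLN1 (0.989) and MRPL55 (0.989). They were chosen from 8802 skipped exons with at least 20 reads in every library and a range of group means of at least 0.1. The closest to exon 9 reached r = 0.952 (HID1). These are descriptions over groups that share libraries, depth and controls.

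The 93-nt exon of MDM2 was a minor exon in DMSO and lower still wherever GSK591 was present. Its Ψ was 0.087, 0.087 and 0.078 in DMSO at 4 days, from 97 inclusion and 656 skipping reads. With GSK591 it was 0.027, 0.042 and 0.013 at 2 days, and 0.024, 0.028 and 0.020 at 4 days. No library of these GSK591 groups reached the lowest DMSO 4-day library. ΔΨ was -0.056 (adjusted p = 6.2e-04; 0.014 without library a) and -0.060 (1.3e-06). At 7 days DMSO gave 0.037, 0.068 and 0.097 and GSK591 0.019, 0.020 and 0.013, a ΔΨ of -0.050 (2.3e-04) that lost its call without DMSO library c (adjusted p = 0.10). With both inhibitors the means were 0.022 ± 0.006 at 2 days (7.9e-06) and 0.022 ± 0.012 at 4 days (2.4e-06).

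MS023 left the 93-nt exon near its control level, at 0.089 ± 0.029, 0.071 ± 0.029 and 0.073 ± 0.017 at 2, 4 and 7 days (adjusted p 0.93, 0.57 and 0.89). GSK591 was below MS023 at all 3 days (adjusted p 3.0e-04, 7.7e-05 and 0.0018; 0.0040 at 2 days without library a). With the alternative test, limma on the log2 odds, none of the 5 calls against DMSO held (adjusted p 0.094 to 0.30). The counts show that the exon's own reads moved less than those that skip it: its inclusion reads summed to 97 in DMSO and 71 in GSK591 at 4 days, while the skipping reads went from 656 to 1782. These sums are not scaled for library depth.

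The 87-nt exon took a larger part of the reads that enter either of the pair, but its own inclusion stayed low. Scored against reads that join the exons on either side of the pair directly, its group means were 0.012 to 0.034. On that event ΔΨ with GSK591 was 0.010 at 4 days and 0.0096 at 7 days, and no comparison with DMSO called it. The larger part is thus a share within the pair. Scored against the 93-nt exon, its share was 0.198, 0.213 and 0.029 in DMSO at 4 days. It was 0.427, 0.524 and 0.620 with GSK591 at 4 days (adjusted p = 0.0046) and 0.672, 0.599 and 0.426 with both inhibitors at 4 days (0.0035). The libraries did not overlap, but a library had as few as 30 reads, and the GSK591 call was lost without its library c (adjusted p = 0.052). These 2 were the only calls of this share in the 6 comparisons with DMSO where it was tested. The same reads gave the other called events of this intron at 4 days of GSK591. Inclusion of the 87-nt exon before the 93-nt exon went from 0.059 to 0.311 (adjusted p = 0.0025) and that of the 93-nt exon after the 87-nt exon from 0.668 to 0.272 (adjusted p = 0.046, at least 10 reads per library). At 7 days the share of the 87-nt exon was 0.521 ± 0.123 with GSK591 and 0.085 ± 0.147 in DMSO, where a library had only 6 reads and no test was made.

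**Figure D3:**
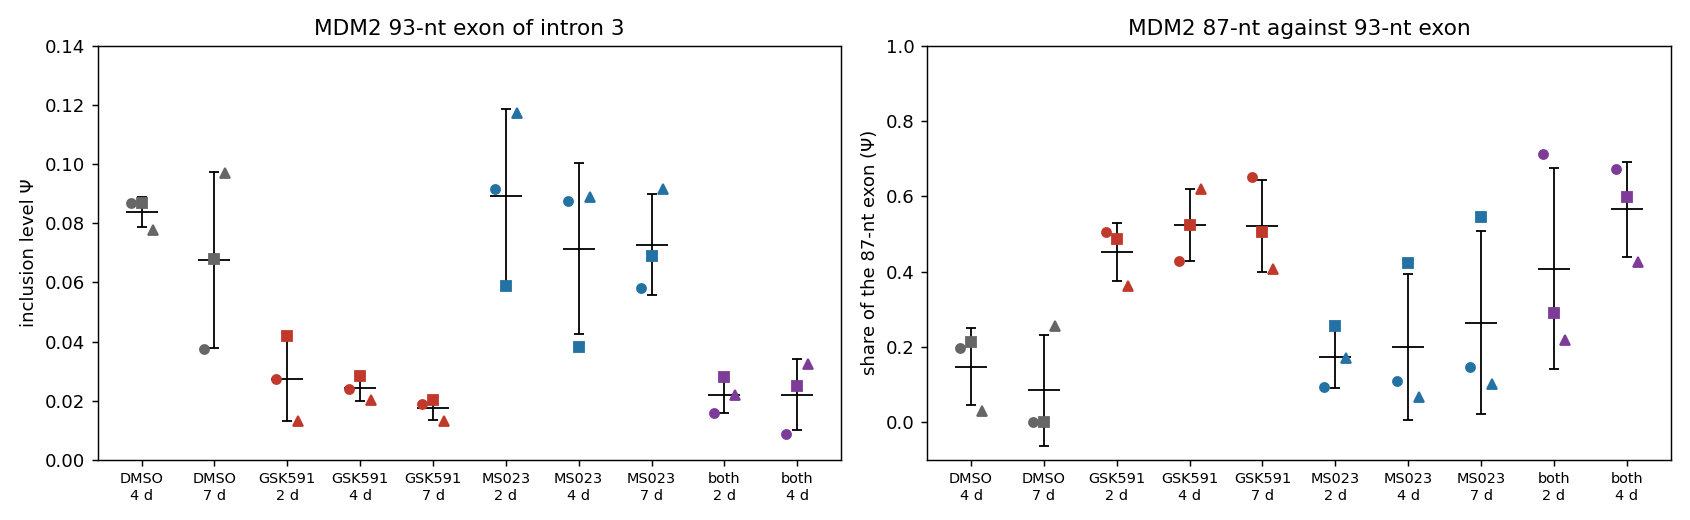
MDM2 exons of intron 3 in the 3 libraries (circle a, square b, triangle c) of the 10 groups, with means and SD bars: left, Ψ of the 93-nt exon (y axis, 0 to 0.14); right, share of the 87-nt exon among reads of the 87-nt or the 93-nt exon. On the left GSK591 and co-treatment group means lie between 0.017 and 0.027 and the other groups between 0.067 and 0.089; on the right the GSK591 and co-treatment means lie between 0.408 and 0.566 and the other groups between 0.085 and 0.264.

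In the events described below, the coding exons of MDM2 stayed near full inclusion. An event that skips all of exon 9 ranged more, with group means of 0.813 to 1.00, on as few as 4 reads in a library. Exon 4, whose loss gives a stop at codon 85, was at 0.949 ± 0.023 in DMSO and 0.982 ± 0.004 with both inhibitors at 4 days (adjusted p = 0.0071), its only call. Fits that left out a library are not given for this call. ΔΨ of exon 4 at 4 days was 0.022 with GSK591 and 0.023 with MS023, neither called. Exon 8, the skipped exon with the most reads, stayed between 0.979 and 1.00 and was not called in any comparison. The long form of exon 9, which differs from the short form by 141 nt and keeps the frame, was at 0.933 ± 0.026 in DMSO at 4 days. It was at 0.983 ± 0.014 with MS023 at 2 days (adjusted p = 0.034), the single call of MS023 against DMSO among the 4 genes, at 0.971 ± 0.002 with both inhibitors at 2 days (0.043) and at 0.974 ± 0.017 with both at 4 days (0.026). These calls were lost in 5, 5 and 4 of the 6 fits that left out a library, and DMSO at 7 days was itself at 0.976 ± 0.010.

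The remaining MDM2 calls were mutually exclusive pairs in which the main transcript holds both exons, so their Ψ compares reads on one exon with reads on the other. Exon 3 against exon 4 went from 0.451 ± 0.013 to 0.532 ± 0.004 with GSK591 at 4 days (adjusted p = 0.042), and the call was lost when any 1 library was left out. Exon 3 against exon 10 went from 0.396 ± 0.043 to 0.511 ± 0.021 with GSK591 at 7 days (adjusted p = 0.018). For this pair, fits that left out a library are not given. Pairs of this kind also differed between the DMSO groups. At 7 against 4 days of DMSO 3 of 40 events of the 4 genes were called (7.50%, against 7.04% of all events), all lower and all such pairs, among them exon 2 against exon 3 of PPM1D (0.548 ± 0.031 and 0.328 ± 0.058, adjusted p = 1.1e-04). Between 4 and 2 days of the same inhibitor 0 of 47 (GSK591; 0 of 49 without library a), 0 of 28 (MS023) and 0 of 41 (both) were called, against 1.03% (0.868% without library a), 0.163% and 2.11% of all events.

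The skipped exons of PPM1D were nearly always included, and that of CDKN1A nearly always skipped. Exon 3 of PPM1D (chr17:58711214-58711338 in PPM1D-201, 6 exons, 605 codons) had 0 skipping reads in DMSO at 7 days and 10 with GSK591 at 7 days, a Ψ of 1.00 and 0.979 ± 0.014 (adjusted p = 0.030). It was at 0.995 ± 0.005 in DMSO at 4 days and 0.958 ± 0.009 with both inhibitors at 4 days (adjusted p = 0.031). Its loss gives a stop at codon 235. The first call was lost in 5 and the second in all of the 6 fits that left out a library. Exon 5 of PPM1D was at 0.983 to 1.00 in every group and not called. In CDKN1A, a 91-nt exon at chr6:36650417-36650507 of CDKN1A-202 had group means of 0.002 to 0.008 and was not called, and nearly all reads joined the exons on either side of it.

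The same reads, summed over both forms of 1 event per gene, were used as a proxy for the amount of RNA of each gene. They cover only part of a gene and can depend on the event chosen. In a bulk sample fewer cells with a transcript and less of it per cell cannot be told apart. The values are RPM, the reads on the same event in all 30 libraries scaled to each library's total over 1 event per gene, and folds are log2 ± SE from limma-voom over all genes tested. A fold comes from the event of the gene with the most reads in that comparison, which was the event of the RPM values for CDKN1A and MDM2 throughout but often another event for PPM1D and MDM4, for which the fold on the shared event is given too where these differ in their call or the reads are printed. They compare 1 gene between groups and not genes with each other, since they are not per length.

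CDKN1A had the largest gain. Its event held 607, 481 and 607 reads in DMSO at 4 days (43.1 ± 8.0 RPM) and 1850, 2053 and 2449 with GSK591 at 4 days (181 ± 7.9). At 7 days DMSO had 598, 571 and 527 (53.9 ± 3.8) and GSK591 3247, 2426 and 2611 (299 ± 43.6). The GSK591 libraries were far above all DMSO libraries at both days. The log2 change was 2.09 ± 0.09 at 4 days (adjusted p = 5.5e-18) and 2.50 ± 0.10 at 7 days (1.8e-11), a 4.25-fold and a 5.65-fold rise. With both inhibitors the log2 change was 0.83 ± 0.10 at 2 days (3.0e-08) and 2.16 ± 0.09 at 4 days (2.9e-17). MS023 gave -0.02 at 2 days (0.93), -0.32 ± 0.11 at 4 days (0.025, lost without DMSO library a or c or MS023 library b or c) and -0.06 at 7 days (0.62).

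MDM2 rose with GSK591 as well. Its reads were 416, 511 and 551 in DMSO at 4 days (37.3 ± 4.9 RPM) and 1119, 1151 and 1437 with GSK591 at 4 days. At 7 days they were 464, 362 and 401 in DMSO (38.9 RPM) and 940, 924 and 907 with GSK591 (99.9 ± 0.95). The log2 change was 1.501 ± 0.09 (5.2e-15) and 1.40 ± 0.09 (3.4e-09), and with both inhibitors 0.79 at 2 days (3.2e-08) and 1.54 at 4 days (2.9e-14). MS023 went the other way at 7 days, with 253, 238 and 242 reads and a log2 change of -0.61 ± 0.11 (2.7e-04), after -0.13 and -0.25 at 2 and 4 days, neither called.

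PPM1D changed less. It was at 19.6 ± 1.2 RPM in DMSO at 4 days and 30.2 ± 2.8 with GSK591 at 4 days. At 7 days it was at 22.6 ± 3.2 in DMSO and 33.2 ± 3.0 with GSK591. The libraries did not overlap at either day, and the log2 change on this event was 0.61 (7.4e-05) and 0.60 (7.9e-04). On the events with the most reads it was 0.56 ± 0.13 (4.4e-04) and 0.53 ± 0.12 (0.0015). With both inhibitors it was 0.02 at 2 days (0.90; 0.22 with 0.14 on the shared event) and 0.78 ± 0.12 at 4 days (2.1e-06), and MS023 was not called at any day.

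MDM4 had the lowest counts and the least stable change. With GSK591 at 4 days the log2 change was 0.68 ± 0.20 (adjusted p = 0.0053) on the event with the most reads in that comparison, but 0.23 (0.41) on the event used in all comparisons. With GSK591 at 7 days the event with the most reads held 38, 25 and 20 reads against 54, 61 and 56 in DMSO, and the log2 change was -0.85 ± 0.28 (0.017; -0.65 with 0.094 without GSK591 library c). The shared event held 28, 26 and 23 reads against 65, 40 and 49, a log2 change of -0.75 (0.034). On both events every GSK591 7-day library had fewer reads than every DMSO 7-day library. With both inhibitors it was 0.37 at 2 days (0.19) and 0.44 ± 0.19 at 4 days (0.046), the latter lost in 5 of 6 fits that left out a library.

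The calls among the 4 genes stand against a high share of calls over all genes, which was 45.3% (GSK591 4 days), 54.0% (GSK591 7 days), 23.6%, 35.9% and 42.3% (MS023 2, 4 and 7 days), 51.5% and 63.4% (both, 2 and 4 days). At GSK591 2 days it was 0.834%, and none of the 4 genes was called there. Library a again set this result: its MDM2 level was 35.1 RPM against 72.0 and 80.2 in b and c, and its CDKN1A level 57.4 against 81.4 and 79.0. Without it, 28.2% of all genes and 4 of 4 members were called, with log2 changes of 1.02 for MDM2 (6.4e-08), 0.91 for CDKN1A (1.1e-06), 0.71 for MDM4 (0.016) and 0.55 for PPM1D (0.0026). With it, the values were 0.63 ± 0.32 (0.32), 0.72 ± 0.21 (0.13), 0.21 (0.80) and 0.46 (0.17).

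**Figure D4:**
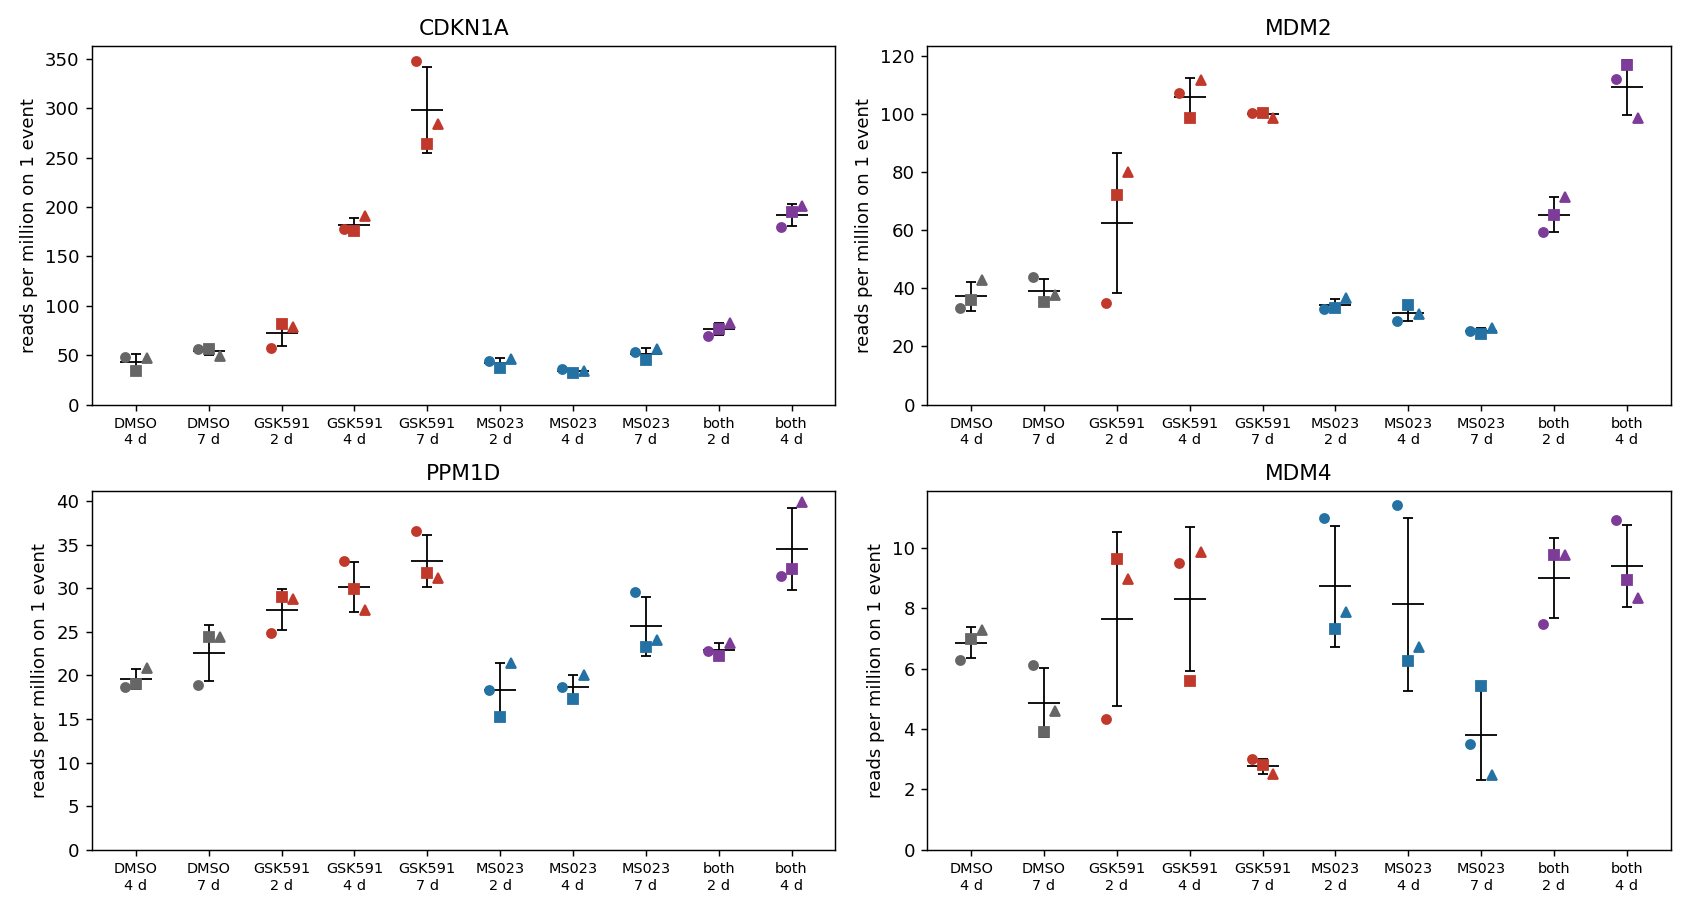
RPM on 1 event of CDKN1A, MDM2, PPM1D and MDM4 (y axes from 0, a different scale for each gene) in the 3 libraries (circle a, square b, triangle c) of the 10 groups, with means and SD bars. CDKN1A and MDM2 are higher in every GSK591 and co-treatment library at 4 and 7 days than in every DMSO and MS023 library, library a is the lowest of the GSK591 2-day group in all 4 panels, and MDM4 is at 2.78 ± 0.25 with GSK591 at 7 days.

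The direct comparison of GSK591 with MS023 at the same day uses no DMSO library. CDKN1A was higher with GSK591 by 0.76 at 2 days (adjusted p = 0.045; 0.92 with 5.8e-09 without library a), 2.43 at 4 days and 2.55 at 7 days on the log2 scale. MDM2 was higher by 0.77 at 2 days (0.15; 1.14 with 1.1e-10 without library a), 1.77 and 2.003, and PPM1D by 0.59 (0.080; 0.66 with 3.3e-04 without library a), 0.78 and 0.46 (0.0022 at 7 days). MDM4 differed by -0.26 (0.64; 0.09 with 0.77 without library a), 0.52 (0.023; 0.05 with 0.86 on the shared event) and -0.68 (0.068). Over all genes 6.52%, 54.6% and 59.0% were called, and 40.0% at 2 days without library a. Both inhibitors against GSK591 alone called none of the 4 genes at 2 or 4 days, against 2.95% and 46.3% of all genes. Without library a the 2-day comparison called 31.9% of all genes and still none of the 4. CDKN1A then went from 0.10 to -0.08, MDM2 from 0.17 to -0.22 and MDM4 from 0.17 to -0.33 (adjusted p 0.069 to 0.54), and PPM1D from -0.24 to -0.33 (0.056). At 7 against 4 days of DMSO, where 50.1% of all genes were called, CDKN1A was higher by 0.33 ± 0.12 (0.026) and the other 3 were not called.

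A wider list of 73 p53 pathway genes, chosen with earlier results of these data known, was read the same way. It holds p53 kinases, ubiquitin ligases, cofactors and targets. At GSK591 4 days 87 of 679 tested events in 30 genes were called, 35 higher and 52 lower (12.8%), at 2 days 59 of 650 (9.08%) and at 7 days 51 of 631 (8.08%). MS023 called 21 of 620 (3.39%), 26 of 678 (3.83%) and 31 of 570 (5.44%) at 2, 4 and 7 days, and both inhibitors 83 of 705 (11.8%) and 105 of 689 (15.2%) at 2 and 4 days. These shares are near those of all events given above.

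The examples are from the 3 called events with the largest ΔΨ in each comparison and at least 50 reads in every library. A retained intron of PIDD, which encodes a death-domain protein induced by p53, went from 0.336 ± 0.054 to 0.626 ± 0.046 with GSK591 at 4 days (adjusted p = 2.8e-05), and at 7 days from 0.386 ± 0.024 to 0.642 ± 0.039 with GSK591 (7.9e-05) and to 0.169 ± 0.022 with MS023 (3.5e-04). A retained intron of WRAP53 went the other way with GSK591 at 4 days, from 0.267 ± 0.045 to 0.039 ± 0.012 (adjusted p = 5.1e-08). A 45-nt exon of CREBBP, a histone acetyltransferase that also acetylates p53, fell from 0.877 ± 0.007 to 0.515 ± 0.082 with both inhibitors at 4 days (2.4e-10). An exon of CHEK2, a kinase that phosphorylates p53, went from 0.758 ± 0.026 to 0.460 ± 0.079 with both inhibitors at 2 days (4.2e-05). Exons of RFWD2 (COP1) and HUWE1, both ubiquitin ligases of p53, were lower with MS023 at 4 days, at 0.503 against 0.748 and at 0.502 against 0.708.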

How the data were processed

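Poly(A)-selected RNA of A549 cells was sequenced in 10 groups of 3 libraries. The authors trimmed reads with Trim Galore 0.6.5, aligned them to hg19 with STAR 2.4.2a and ran rMATS 4.0.2 for each inhibitor group against its DMSO group. The deposited tables hold, for each skipped exon (SE), mutually exclusive exon (MXE), alternative 3′ or 5′ splice site (A3SS, A5SS) and retained intron (RI), whole read counts for and against inclusion, listed per library without normalization. Their columns of the authors' own inclusion levels, differences, p-values and FDR were not used. The lists carry no replicate number, so a, b and c stand for the order of libraries within them. Which DMSO group served as control was inferred from the labels, at 7 days because they hold 1 DMSO group of that day.

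Events with at least 10 reads in every library and both forms observed were tested with a quasi-binomial logistic model, in R 4.3.3. The dispersion was moderated by squeezeVar from limma 3.58.1 with a floor of 1, followed by Benjamini-Hochberg adjustment over all events of a type in a comparison. Amounts were tested on the reads of 1 event per gene with limma-voom and TMM scaling, in place of the planned count model, which was not run. Both tests were checked on simulated data. Sequence came from GRCh37 and exon annotation from GENCODE 44 lifted to it. In the GSK591 4-day table, 99.8% of skipped exons had AG before and GT or GC after them in this genome, and 0.466% after a shift of 7 bases. Counts from poly(A) RNA over junctions and exon bodies are limited by depth, and events with few reads have wide errors.

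The members, the pathway list and the rule for named events were chosen with earlier results of these data known. Described were, per gene and event type, the event with the most reads among those tested, and events called in 2 or more of the 8 comparisons with DMSO. The MDM2 events of the 87-nt exon outside this rule, exon 4 of MDM2 and the pairs called once were named after their values were seen. The 4-to-2-day comparisons, the interaction of day and inhibitor, and the use of the same event in all comparisons were added after the data were seen. Nascent RNA and actinomycin D samples were not analysed here. Some items, 1 exon sequence among them, are not reported here.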

Additional observations from a re-analysis of the deposited data

Results flagged for a closer look

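Levels of 3 of the 4 genes, by reads on 1 event per gene, changed between 2 and 4 days of the same treatment in a direct comparison (limma-voom, adjusted over all genes tested). CDKN1A was higher at 4 than at 2 days of GSK591 by 1.34 ± 0.16 on the log2 scale (adjusted p = 0.034), where 0.680% of all genes were called, and by 1.17 (7.3e-12) without GSK591 2-day library a, where 26.1% were called. MDM2 was higher at 4 than at 2 days of GSK591 by 0.86 (adjusted p = 0.16), and by 0.48 (1.1e-04) without that library. CDKN1A was also higher at 4 than at 2 days of both inhibitors, by 1.33 (adjusted p = 2.4e-21). At 4 against 2 days of MS023 the log2 change of CDKN1A was -0.30 (adjusted p = 0.023), and that of MDM2 was -0.12 (0.47). With both inhibitors MDM2 was higher by 0.74 (4.2e-11) and PPM1D by 0.57 (1.2e-04) at 4 than at 2 days. In these comparisons 38.5% of all genes were called with both inhibitors and 17.5% with MS023. The cause of these differences was not tested.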

How the results depend on the processing

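No paired analysis was possible because the columns carry no replicate numbers. Of 777 values of single events and genes under the alternatives, 33 had the opposite sign to the main value, 32 of them with 1 library left out, and in 0 of these was either value called. Under limma on the log2 odds the calls among the 4 genes fell to 0 (GSK591 2 and 7 days, MS023 2 days, GSK591 against MS023 at 2 and 7 days), 1 (both inhibitors 2 days) or 2 (GSK591 4 days, both inhibitors 4 days, GSK591 against MS023 at 4 days). It also lost the calls of MDM4 exon 6 at GSK591 2 days (-0.386, adjusted p = 0.19) and against MS023 at 2 days (-0.420, 0.13) and 7 days (-0.310, 0.11), and of exon 9 with both inhibitors at 2 days (-0.148, 0.15). A minimum of 20 reads left 1 call in GSK591 against MS023 at 7 days. The cause was not tested.

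Leaving out 1 library gave 4 to 5 calls at GSK591 4 days (4 without GSK591 library c), 1 to 3 at GSK591 7 days (1 without DMSO library a or c or GSK591 library a), 0 to 1 at MS023 2 days (1 only without DMSO library b), 2 to 4 with both inhibitors at 2 days (2 without co-treatment library a or b, 3 without DMSO library a or c or co-treatment library c) and 4 to 6 at 4 days (4 without DMSO library c or co-treatment library a or c). It gave 0 to 2 for GSK591 against MS023 at 7 days (0 without MS023 library c) and 0 to 1 for both inhibitors against GSK591 at 2 days (1 without GSK591 library b) and at 4 days (1 without GSK591 library c or co-treatment library b). For exon 9 the difference with both inhibitors at 2 days ranged from -0.160 to -0.135, and for exon 6 against MS023 at 7 days from -0.373 to -0.231. The number of the 4 genes called by reads ranged from 0 to 4 at GSK591 2 days (4 without GSK591 library a) and from 0 to 1 at MS023 4 days (0 without DMSO library c or MS023 library b or c).

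Among single named events and genes, 18 alternative values outside the left-out libraries lost their call and 159 kept their side of the threshold. With 1 library left out, 50 lost their call, 6 gained one and 238 did neither. A minimum of 20 reads left no value for some events with fewer reads. The planned second count test was not run. Depth limits MDM4 most, with as few as 13 reads on exon 6 in a library.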
